A study of Homo sapiens with 2 samples.

Results

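The CEP genes encode centrosomal proteins, and 34 of the 55392 gene symbols with rows of their own were looked at here: every gene of the deposited expression table that has a symbol made of CEP, a number and an optional letter, together with CCP110, the binding partner of CEP97. They were chosen by name, but CEP97 drew attention to the family because of its ratio between the libraries, so that ratio is given as a description. The cells were HuH6, a human hepatoblastoma line grown untreated. One library came from the unedited line (HuH6_WT) and the other from HuH6 cells in which the kinase gene PIM3 had been knocked out with CRISPR/Cas9 (PIM3_KO). With 1 library per group there is no replicate check, no p-value was computed, and loss of PIM3 cannot be separated from anything else that sets the edited cells apart from HuH6_WT. The sources used here do not say whether PIM3_KO is a clone or a pool.

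A centrosome is built around a pair of centrioles, short microtubule cylinders embedded in a matrix that nucleates microtubules. A new centriole forms beside each old one once per cell cycle, when the kinase PLK4 acts on scaffolds such as CEP152 and CEP192. CEP97 and CCP110 form a cap on the distal end of the centriole that limits its length and keeps it from growing a primary cilium. The cap is removed from the mother centriole when a cell leaves the cycle and builds a cilium, with distal appendage proteins such as CEP164 and CEP83 docking the centriole to the membrane.

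Of the 34 members, 32 had a single row and 2 (CEP72 and CEP170) had 2 rows, of which 1 was at 0 in both libraries. Expression was given as FPKM, fragments per transcript length and sequencing depth, so levels of different genes can be compared per length. Differences are log2 ratios of FPKM + 1, PIM3_KO over HuH6_WT, and a member was counted when it had a single row and averaged 1 FPKM or more. This left 30 members. In these bulk libraries, fewer cells that express a gene and less RNA per cell cannot be told apart. CEP126, a microtubule-binding protein of the cilium base, measured 0.0162 FPKM in HuH6_WT and was listed at 0 in PIM3_KO. CEP85L, which is needed for neuronal migration, measured 0.299 and 0.0813 FPKM, about 63.3 and 13.5 reads. CEP170, a protein of the subdistal appendages, measured 0.131 and 0.167 FPKM in its nonzero row. CEP72, a satellite protein that recruits gamma-tubulin, measured 17.4 and 14.0 FPKM in its nonzero row. CEP112 appeared only inside a row that joined it with AXIN2 and could not be read.

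CEP97 was the member that differed most. HuH6_WT gave 0.904 FPKM and PIM3_KO 69.0 FPKM, which are 76.3-fold apart in level with a log2 ratio of 5.20. In PIM3_KO it was the highest of the 30 counted members. In HuH6_WT it was the lowest of them, but it passed the filter on the mean only through its PIM3_KO value. CEP85L, CEP170 and CEP126, which were not counted, were lower still in HuH6_WT. CEP97 ranked 6 from the top among the 11253 measured genes, those that averaged 1 FPKM or more. Of 9693 measured coding genes, 2 were at least 32-fold higher on the FPKM + 1 scale (0.0206%). The other was AFP, a fetal plasma protein, at 1.19 and 70.1 FPKM.

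The annotation of CEP97 bears on how its value is read. The gene (ENSG00000182504.10) spans chr3:101723925-101770562 (GRCh38, plus strand), and GENCODE release 29 gives it 6 transcripts of 93 to 8361 bases. FPKM divides by transcript length, so the number of reads behind a value depends on which transcript they came from. If all of the signal lay on the 8361-base transcript, the values would stand for about 209 reads in HuH6_WT and 12514 in PIM3_KO. If all of it lay on the 769-base transcript, they would stand for about 14.6 and 872.5 reads. The first reading gives a counting interval for the fold of 66.6 to 87.9 (exact binomial, 95%, counting error only). For the 93-base transcript, which is shorter than a usual library fragment, no conversion could be made. The deposited values are per gene, so the share of each transcript could not be told apart.

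The shortest transcript is shown because every base of it is also found in the main coding transcript. It has 2 exons, at chr3:101732611-101732654 and chr3:101755430-101755478 of GRCh38, both inside the gene. Exon 1 supplies 44 bases and exon 2 supplies 49, and all 93 bases lie in the 865-codon reading frame of the main transcript. The 8 capitals mark the exon junction, 4 bases on each side.
CEP97 shortest transcript: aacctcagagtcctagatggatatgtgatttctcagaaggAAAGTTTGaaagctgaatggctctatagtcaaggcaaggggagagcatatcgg
A read from this stretch could therefore be assigned to either transcript. CEP97 was the only counted member with a transcript under 100 bases, and the next shortest transcript in any other counted member had 219 bases. Among the other 18 measured coding genes that have a transcript under 100 bases, 2 differed by at least 2-fold (11.1%) and 0 by at least 4-fold (0%). Among the 290 measured coding genes with a transcript under 200 bases, CEP97 included, 42 differed by at least 2-fold (14.5%) and 8 by at least 4-fold (2.76%), against 9.78% and 0.659% of the 9403 without one. The part of short transcripts in the CEP97 value was not tested.

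The genes beside CEP97 did not share its difference. Of the 8 measured rows within 250 kb, 4 had lower values in PIM3_KO. The ratios ran from -0.97 (PCNP, at 208 and 106 FPKM) to 0.76 (the pseudogene AC073861.1, at 40.4 and 69.1 FPKM). The nearest row upstream was the pseudogene PDCL3P4, at 0.815 and 1.47 FPKM, and the next was RPL24, a protein of the large ribosomal subunit, at 1901 and 2437 FPKM. Downstream, the joined row of NFKBIZ and NXPE3, on the same strand as CEP97, measured 3.61 and 1.58 FPKM. Over a wider stretch, the 20 measured coding genes nearest to CEP97, which span 12.2 Mb, had a median log2 ratio of -0.22. No other annotated gene overlaps CEP97.

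**Figure D1:**
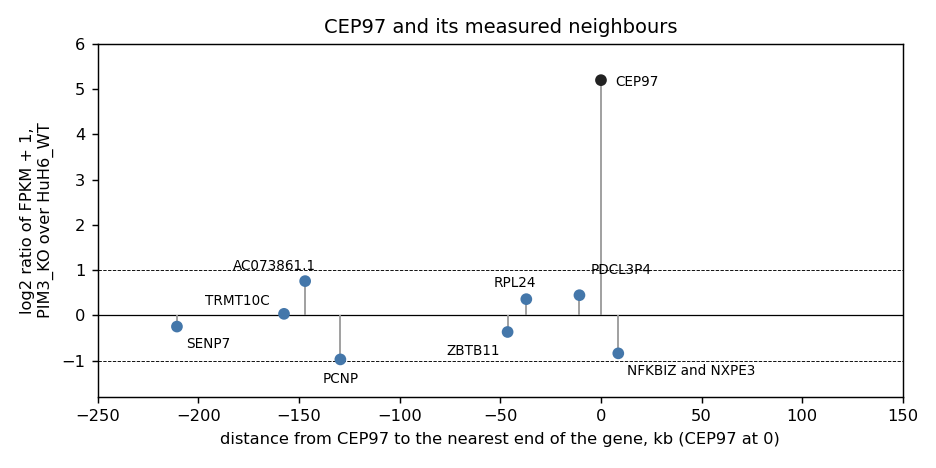
Log2 ratio of FPKM + 1 (PIM3_KO over HuH6_WT) of CEP97, at 0 kb, and of the 8 measured rows within 250 kb, against the distance in kb to the nearest end of each gene. Dashed lines mark 2-fold; CEP97 stands at 5.20 while the neighbours lie between -0.97 and 0.76.

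CCP110, the partner of CEP97 in the cap, went the other way. The parental library gave 4.003 FPKM and the knockout 1.39 FPKM, 34.7% of the parental level, with a counting interval of 28.995% to 41.2% from about 606.6 and 165.0 reads. Its log2 ratio was -1.07. CEP78, which acts on CCP110 stability, measured 21.5 and 17.1 FPKM, lower by less. CEP76, which limits reduplication of centrioles, measured 13.1 and 11.9 FPKM, and its counting interval of 82.7% to 100.3% of the parental level includes equality. In HuH6_WT, the deposited FPKM of CEP97 was thus below that of CCP110, and in PIM3_KO it was far above it. Which CEP97 transcript the value stands for is not known, so the order of the 2 genes depends on the lengths used.

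**Figure D2:**
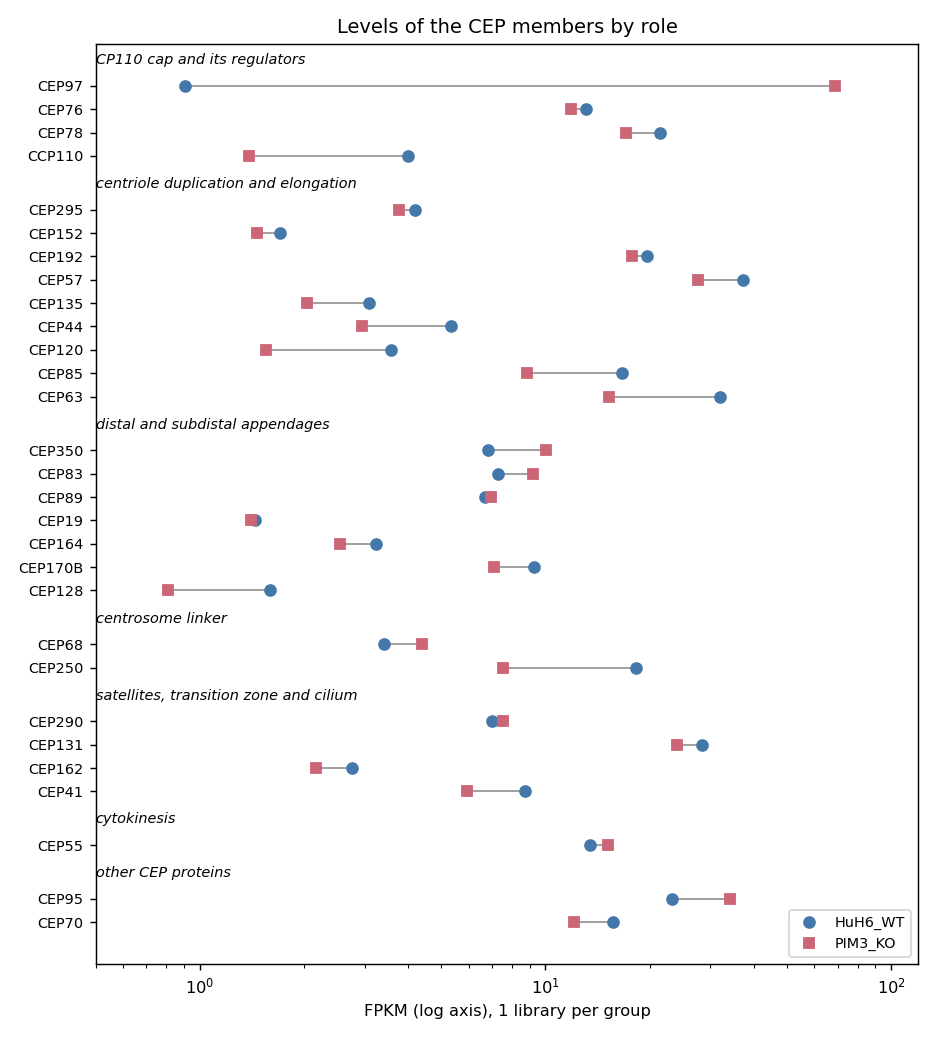
FPKM of 29 of the 30 counted members in HuH6_WT (circles) and PIM3_KO (squares) on a log axis, grouped by role, with 1 library per group. CEP97 spans 0.904 to 69.0 FPKM, CCP110 lies at 4.003 and 1.39 FPKM, and all 9 members of the duplication group have the square to the left of the circle.

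Of the 30 counted members, 22 were lower in PIM3_KO and 8 were higher, against 49% of all measured genes and 50.9% of coding genes that were lower. These counts go by sign alone, and the counting intervals of CEP19, CEP76, CEP89, CEP152 and CEP290 include equality. The median log2 ratio of the members was -0.25, and that of all measured genes was 0.01. At least 2-fold higher was 1 member (background 6.89%), and at least 2-fold lower were 3 members, or 10.0% of those counted (background 4.59%). The 3 were CEP250, CCP110 and CEP63; CEP63 lay just inside the threshold at -1.02 and CEP85 just outside it at -0.85. With a pseudocount of 0.1, CEP120 also passed, at -1.15, which made 4. Without CEP97 the other 29 members had a summed level of 394 FPKM in HuH6_WT and 317 FPKM in PIM3_KO.

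Over all coding genes, the ratios moved with transcript length. The members are long genes: their median transcript had 5353 bases against 3135 for measured coding genes, and 25 of the 30 were above that value. Among 2002 measured coding genes at least as long as the median member, 67.8% were lower in PIM3_KO and the median log2 ratio was -0.25, the same as in the CEP members. With the length trend over all coding genes removed, 19 of the 30 members were below 0 (background 50.1% of 9693 coding genes) and the median was -0.11. At least 2-fold lower after this removal were 0 of the 30 members and 364 genes in all. Split at their own median length, 12 of the 15 shorter members and 10 of the 15 longer ones were lower, each with a median of -0.25. Since 25 of the 30 are above the coding median, this split does not set long genes against short ones. The part of length in the members' lower values was not tested further.

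**Figure D3:**
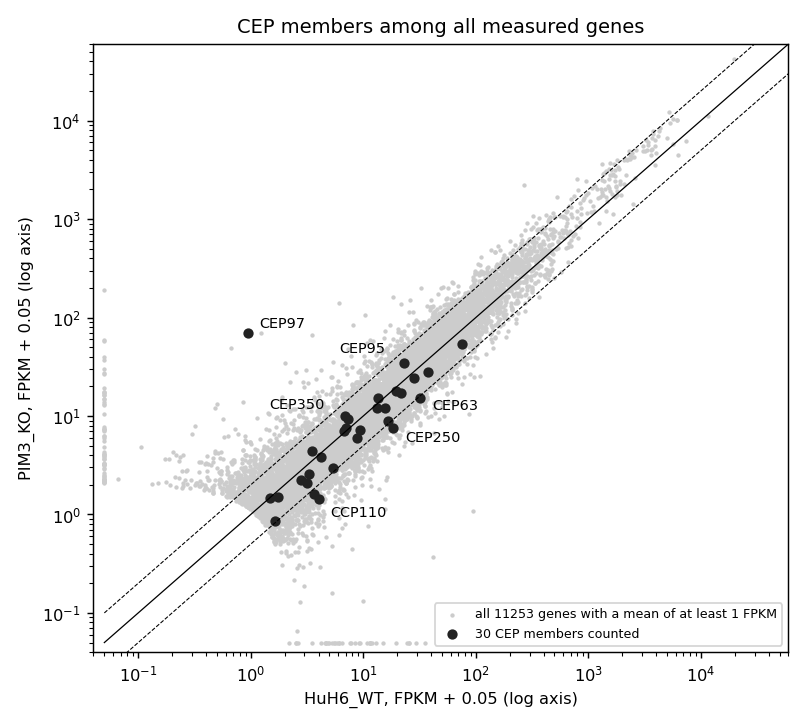
FPKM + 0.05 in PIM3_KO against HuH6_WT on log axes for 11253 measured genes (grey) and the 30 counted CEP members (black); the solid line marks equality and the dashed lines 2-fold. CEP97 stands apart above the cloud, and CEP250, CCP110, CEP63 and the unlabelled CEP120 lie below the lower dashed line on this scale.

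All 9 counted scaffolds of centriole duplication and elongation were lower in PIM3_KO. For CEP152 the counting interval, 69.8% to 105.5% of the parental level, includes equality. Of all measured genes 49% were lower, and of the long coding genes described above 67.8%. Not all of the 9 are that long: the transcript used had 3178 bases in CEP57 and 3935 in CEP85. The median log2 ratio of the 9 was -0.43, with a range from -1.02 to -0.12. After the length trend was removed, 6 of 9 were lower (background 50.1%). CEP63, which brings CEP152 to the centriole, measured 31.9 and 15.2 FPKM. CEP85, which binds STIL, measured 16.6 and 8.82 FPKM. CEP120, a protein of centriole elongation, measured 3.57 and 1.55 FPKM, and CEP44, which acts in the conversion of centrioles to centrosomes, 5.34 and 2.94 FPKM.

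The remaining scaffolds differed by smaller amounts. CEP135, a protein of the centriole cartwheel, measured 3.09 and 2.04 FPKM, and CEP57, a partner of CEP63, 37.2 and 27.6 FPKM. The PLK4 receptors lay nearer to equality: CEP192 measured 19.7 and 17.8 FPKM, and CEP152 1.70 and 1.46 FPKM. CEP295, which is needed to turn a new centriole into a centrosome, measured 4.19 and 3.76 FPKM. With the length trend removed, CEP152, CEP192 and CEP295 turned positive, at 0.09, 0.11 and 0.12.

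The proteins that these scaffolds work with did not all follow. In the list of the centriole assembly and elongation core, 15 genes were measured, 6 lower (background 49%) and 9 higher. In each direction 1 passed 2-fold (background 6.89% higher and 4.59% lower). The median log2 ratio was 0.08, or -0.35 under TPM. The kinase PLK4, which starts duplication, measured 16.9 and 7.76 FPKM, a log2 ratio of -1.03. Its partners in the cartwheel were lower too, SASS6 at 4.14 and 2.69 FPKM and STIL at 9.43 and 6.65 FPKM. Delta-tubulin, TUBD1, measured 10.0 and 25.7 FPKM, a log2 ratio of 1.28, and the calcium-binding centrin CETN3 32.3 and 45.1 FPKM.

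The linker that holds centrosomes together in interphase had 1 member on each side. CEP250 (C-Nap1), which anchors the linker at the proximal centriole ends, stood at 18.2 FPKM in the parental and 7.56 FPKM in the knockout library, 41.4% of the parental level (counting interval 39.6% to 43.3%). Its log2 ratio of -1.17 was the lowest among the counted members with a pseudocount of 1, while with a pseudocount of 0.1 CCP110 was lower, at -1.46 against -1.26. CEP68, a linker fibre protein, measured 3.42 and 4.38 FPKM, a log2 ratio of 0.28, or -0.09 under TPM, in which both libraries are rescaled to the same total. Exons of 12 counted members overlap another gene, always on the opposite strand. Among them are CEP68 with RAB1A (213 and 211 FPKM), CEP76 with PSMG2 (97.7 and 77.3 FPKM), CEP63 with ANAPC13 (51.6 and 51.3 FPKM), CEP295 with TAF1D (94.99 and 207 FPKM) and CEP44 with FBXO8 (8.32 and 9.997 FPKM). Of the 18 members with no such overlap, 14 were lower (background 49%), with a median of -0.34. The part of overlapping genes in the members' values was not tested. Whether strand was used in counting is not given in the sources used here.

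Members of the mother centriole's appendages were mixed, with 4 of 7 lower (background 49%) and a median of -0.02. Among the distal appendage proteins, which dock the centriole to the membrane, CEP83 measured 7.27 and 9.20 FPKM, CEP89 6.70 and 6.95 FPKM and CEP164 3.22 and 2.54 FPKM. CEP350, which anchors microtubules, measured 6.81 and 10.0 FPKM, a log2 ratio of 0.49. CEP128, a subdistal appendage protein, was at 1.59 and 0.807 FPKM. CEP170B, a relative of CEP170, measured 9.25 and 7.09 FPKM, and CEP19, which recruits the GTPase RABL2 to the centriole, 1.44 and 1.41 FPKM. Within the group, CEP350 and CEP128 thus stood at opposite ends, at 0.49 and -0.52. In the list of other appendage and linker proteins, 6 of 11 measured genes were lower (background 49%), with a median of -0.13. In either direction 0 passed 2-fold (background 11.5%). NIN, a microtubule anchor, measured 3.08 and 5.44 FPKM and CCDC102B 0.416 and 1.82 FPKM, against CNTRL at 1.85 and 0.929 FPKM and ODF2 at 18.6 and 13.7 FPKM.

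Members of the satellites, the ciliary transition zone and the axoneme were lower in 3 of 4 cases (background 49%). CEP41, a factor of tubulin glutamylation in cilia, measured 8.71 and 5.95 FPKM. CEP131, a satellite protein, measured 28.3 and 24.1 FPKM and CEP162, which promotes transition zone assembly, 2.76 and 2.17 FPKM. CEP290, which links the transition zone to the membrane and binds CCP110, measured 7.02 and 7.56 FPKM, a log2 ratio of 0.09, or -0.32 under TPM. The other 3 members had other roles or less clear ones. CEP55, which organises the midbody in the last step of cell division, measured 13.5 and 15.2 FPKM, CEP95 23.2 and 34.2 FPKM and CEP70 15.6 and 12.1 FPKM. CEP95 had the highest ratio after CEP97, 0.54, and its exons overlap the abundant helicase gene DDX5 (331 and 268 FPKM) on the opposite strand. Under TPM, where 73.9% of all measured genes were lower, 5 of the 8 higher members had negative ratios, all but CEP97, CEP95 and CEP350.

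Neighbouring genes differed along with some members and against others. The 20 measured coding genes nearest to CEP63 on chromosome 3 had a median log2 ratio of -0.69, and those nearest to CEP120 on chromosome 5 also had -0.69. Set against these medians, CEP63 was at -0.33 and CEP120 at -0.15. CEP250 on chromosome 20 and CCP110 on chromosome 16 lay among genes with positive medians, 0.37 and 0.14, and were at -1.54 and -1.21 against them. These sets of 20 genes are wide: they span 6.18 Mb for CEP63, 13.4 Mb for CEP120, 2.03 Mb for CEP250 and 9.18 Mb for CCP110. Of the 30 members, 17 lay below the median of their neighbours (background 50.2%). The part of regional shifts in the members' values was not tested further.

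**Figure D4:**
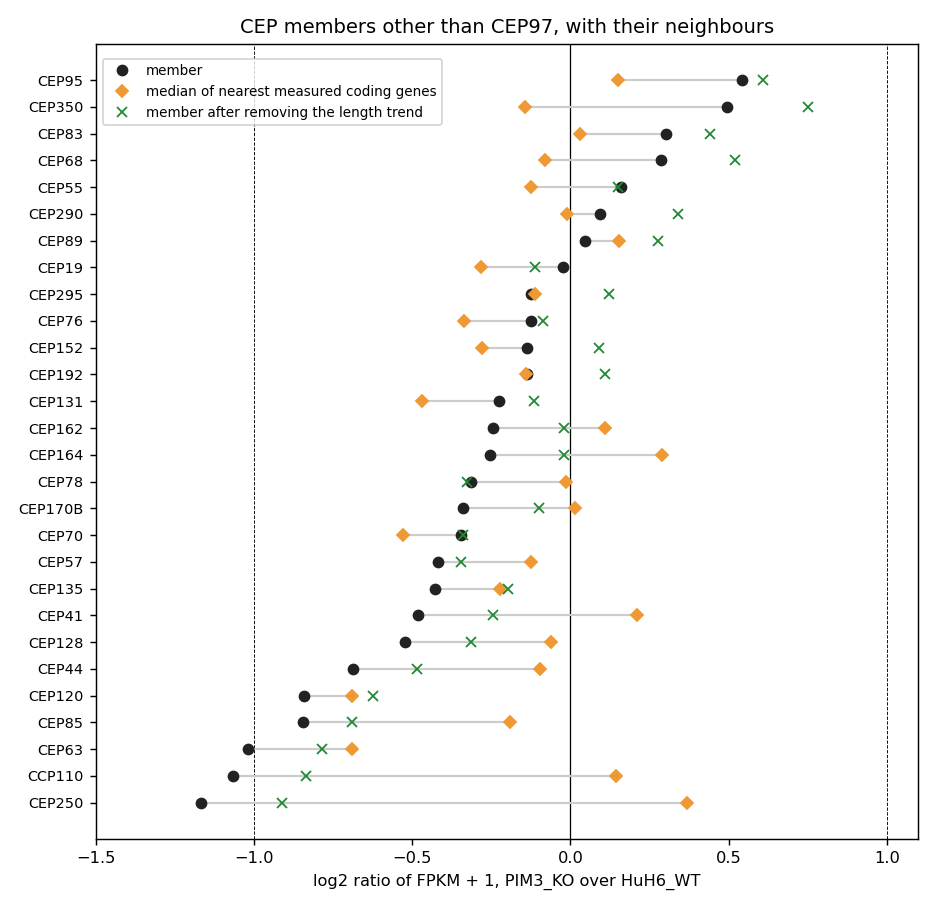
Log2 ratio of FPKM + 1 (PIM3_KO over HuH6_WT) of 28 of the counted members other than CEP97 (circles), the median ratio of the 20 nearest measured coding genes, 10 on each side (diamonds), and the member after removal of the trend with transcript length (crosses); dashed lines mark 2-fold. CEP250 and CCP110 lie far below their neighbours, at -1.54 and -1.21 against the median. CEP63 and CEP120 lie below theirs by less, at -0.33 and -0.15.

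The members' upstream regions were searched for motifs of genes that follow the cell cycle. An ETS core, an NRF1 site and an RFX X-box were searched for as well. RefSeq sequences of the 250 bases before the start were at hand for 26 of the 30 counted members. The RefSeq start need not be the GENCODE one. In some members, among them CEP41, CEP95, CEP97 and CEP164, the window lies at least partly inside the GENCODE gene. Several windows also overlap annotated exons. A CCAAT box (CCAAT, either strand) was found in 15 of 26 members (57.7%), against 33.0% of 27305 promoters and 35.5% of those of measured coding genes. The cell-cycle homology region (TTTGAA, either strand) was found in 7 of 26 (26.9%), against 13.6% and 8.32%. An E2F site (TTTNNCGC, either strand) was found in 6 of 26 (23.1%), against 5.93% and 9.25%. In the duplication group, 5, 4 and 3 of the 9 members held them. An ETS core (CCGGAAG) was found in 4 members (15.4%, against 8.82% and 16.4%), an NRF1 site in 4 (against 5.53% and 10.7%), and an RFX X-box in 1, CEP135 (0.410% of all promoters). No motif searched contains another. These are matches of letters, not shown to be bound.

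The upstream 250 bases of CEP85, of the duplication group, and of CEP55, which was slightly higher in PIM3_KO, show the motifs side by side. They are RefSeq sequences of GRCh38.p14, plus strand, from chr1:26233950-26234199 and chr10:93496362-93496611. Capitals mark the motifs. In CEP85 these are 2 CCAAT boxes on the opposite strand, and in CEP55 a cell-cycle homology region on the opposite strand and a CCAAT box.
CEP85: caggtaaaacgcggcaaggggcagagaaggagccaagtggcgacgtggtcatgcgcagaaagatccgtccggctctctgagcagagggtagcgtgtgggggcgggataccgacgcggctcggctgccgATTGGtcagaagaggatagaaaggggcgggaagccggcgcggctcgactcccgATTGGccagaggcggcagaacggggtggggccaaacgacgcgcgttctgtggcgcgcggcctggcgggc
CEP55: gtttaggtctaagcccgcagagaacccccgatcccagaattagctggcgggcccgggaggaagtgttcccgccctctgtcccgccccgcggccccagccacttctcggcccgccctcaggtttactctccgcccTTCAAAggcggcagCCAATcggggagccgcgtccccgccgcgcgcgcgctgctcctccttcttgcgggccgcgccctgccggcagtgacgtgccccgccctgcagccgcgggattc

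The measured partners and regulators of the CEP97 and CCP110 cap stayed within 2-fold on the FPKM + 1 scale, though not all did under TPM. Of the 16 listed genes, 12 had a single row and 11 were measured. Of these 11, 6 were higher and 5 lower (background 49%), and 0 passed 2-fold (background 11.5%). Their median log2 ratio was 0.11, or -0.34 under TPM. MPHOSPH9, which recruits the cap to the centriole end, measured 12.02 and 18.7 FPKM. KIAA0586 (TALPID3), which acts in removal of the cap, measured 7.11 and 10.96 FPKM. DCAF1, a ubiquitin ligase adaptor, measured 5.75 and 3.47 FPKM. CCNF, the cyclin F subunit that targets CCP110 for destruction, measured 9.66 and 11.1 FPKM, and USP33, which removes ubiquitin from CCP110, 22.2 and 14.9 FPKM. CCNF and USP33 were named after their values were seen.

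Of 17 measured genes of the pericentriolar matrix, 12 were higher and 5 lower (background 49% lower). Upward, 4 passed 2-fold (background 6.89%), and downward 0 (4.59%). The median log2 ratio was 0.31, or 0.23 after the length trend was removed and -0.15 under TPM. The gamma-tubulin ring subunit TUBGCP2 measured 42.8 and 101 FPKM, and the spindle protein TACC3 70.6 and 144 FPKM. The small ring components MZT2A and MZT2B measured 453 and 1054 FPKM and 448 and 941 FPKM; they are near-identical genes, so reads may be split between them wrongly. At the other end, TUBGCP6 measured 14.7 and 7.42 FPKM and NEDD1 11.5 and 6.28 FPKM.

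Centriolar satellite genes were lower in 6 of 7 cases (background 49%), with a median of -0.71, or -0.60 after the length trend was removed. SSX2IP measured 6.11 and 2.01 FPKM, the 1 gene of the list past 2-fold, and BBS4 11.02 and 5.09 FPKM. The scaffold PCM1 measured 49.2 and 38.9 FPKM, and OFD1, the exception, 23.1 and 28.6 FPKM. Only 7 of the 10 listed genes had a single row.

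Of 19 measured intraflagellar transport genes, 12 were lower and 7 higher (background 49% lower). Their median was -0.39, or -0.28 after the length trend was removed. IFT81 measured 6.08 and 2.29 FPKM and IFT22 16.7 and 9.03 FPKM, against IFT20 at 45.7 and 65.7 FPKM and IFT74 at 6.204 and 8.50 FPKM. Of 14 measured genes of the BBSome and ciliary GTPases, 10 were lower (background 49%). Their median was -0.22, or -0.17 after the length trend was removed. ARL6 stood at 2.89 and 0.726 FPKM, with BBS4 as given. On the other side, ARL3 was at 11.4 and 17.7 FPKM and BBIP1 at 27.2 and 36.0 FPKM. Of the transition zone genes, 9 of 17 were lower (background 49%), with a median of -0.01. The lowest ratios were those of NPHP4, at 4.44 and 1.82 FPKM, and IQCB1, at 18.0 and 10.4 FPKM. The highest were those of B9D1, at 53.3 and 91.1 FPKM, and AHI1, at 3.85 and 5.998 FPKM.

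Of the multiciliated cell program, 5 of 10 genes were measured and 0 passed 2-fold (background 11.5%). FOXJ1 measured 23.9 and 22.1 FPKM and TP73 9.16 and 4.98 FPKM, against RFX2 at 5.06 and 6.07 FPKM and RFX3 at 1.78 and 2.31 FPKM. GMNC, a regulator of the program, and DEUP1 and CDC20B, which act in centriole amplification, were listed at 0 in both libraries.

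**Figure D5:**
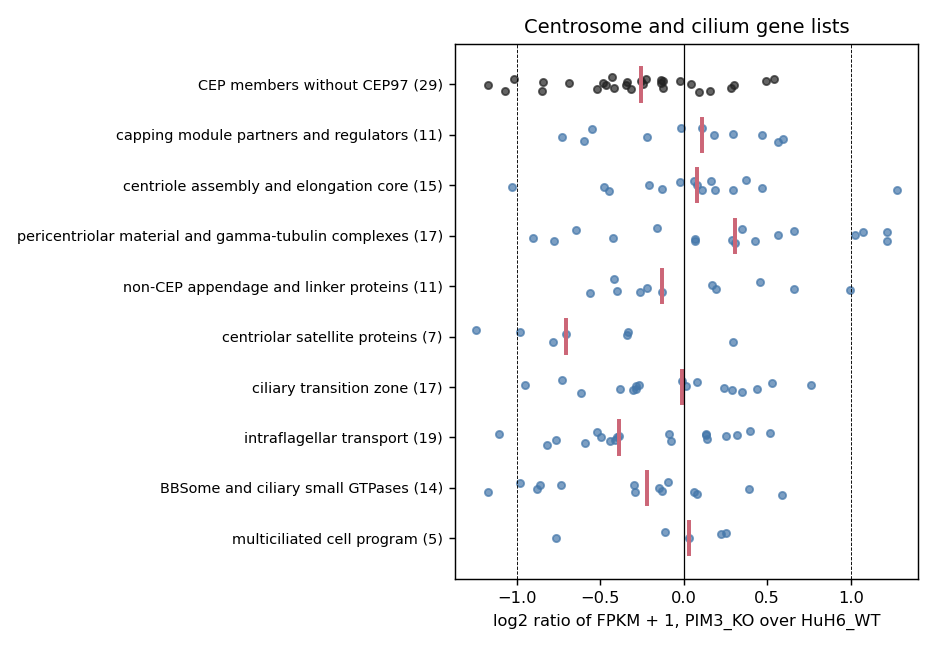
Log2 ratio of FPKM + 1 (PIM3_KO over HuH6_WT) of every measured gene in the CEP family without CEP97 (black) and in 9 lists of centrosome and cilium genes (blue), with the number measured in brackets, medians as vertical bars and 2-fold as dashed lines; points are spread vertically for visibility. The CEP members' median lies at -0.25, that of satellite genes at -0.71 and that of the pericentriolar matrix at 0.31.

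Facts of the libraries touch all of these values. The totals of FPKM were 787250 in HuH6_WT and 1086210 in PIM3_KO, and after rescaling to TPM the median over all measured genes went from 0.01 to -0.40 and over the CEP members from -0.25 to -0.64. Under TPM, 27 of the 30 members were lower (background 73.9%), 6 at least 2-fold lower (14.4%) and 1 at least 2-fold higher (2.87%). PIM3 itself measured 34.2 and 14.0 FPKM. Of the hepatocyte and hepatoblastoma markers, 10 were measured, 5 of them at least 2-fold higher in PIM3_KO (background 6.89%). The median log2 ratio of the 10 was 0.78. APOA1 measured 5201 and 12109 FPKM, TTR 270.4 and 2232 FPKM, ALB 0.520 and 9.18 FPKM and AFP as given above, while GPC3 measured 694 and 607 FPKM, HNF4A 36.1 and 32.7 FPKM, and DLK1 was listed at 0 in both. Of 6 endothelial markers, 4 were at 0 in both libraries, with a summed level of 1.96 and 1.34 FPKM over all 6. Fibroblast markers summed to 10.3 and 10.7 FPKM over 7 genes with THY1 at 0, and leukocyte markers to 9.66 and 17.1 FPKM over 6 genes. Their part in the CEP values was not tested.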

How the data were processed

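Poly(A) RNA was read as single-end 75 bp reads from directional libraries, per the labels' protocols. Tools were Cufflinks 2.2.1, STAR 2.7.3a and bcl2fastq 2.18.0.12 with GRCh38, per the submitters' processing notes; annotation release and strand setting are not given in the sources. Values deposited by the authors are FPKM, 1 column per library, per the file headers. Of 62571 rows, 1736 joined several symbols; 53139 symbols with a single row were used. Log2 ratios used a pseudocount of 1, which understates differences of low genes, and a mean of at least 1 FPKM.

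Positions and lengths came from GENCODE release 29 (1 transcript a gene, the longest principal one where marked), which need not be the authors' annotation or the transcript expressed. Read numbers are approximate. They use transcript length less 200 bases and the value of 1 read that made the most values whole in genes with 1 exon and 1 transcript, where 96.6% and 96.7% of 1757 and 1533 such genes under 20 reads lay within 0.05 of a whole number. The length trend was a lowess fit (fraction 0.3, statsmodels 0.14.6). Ratios and trend removal were tested on simulated data. No count test was run on FPKM.

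The members and gene lists were chosen with earlier results of these data known. Some genes are counted in the totals but not reported by name here. Otherwise, named were all members, PIM3, neighbours of CEP97 within 250 kb, and in each list the genes past 2-fold and the 2 highest and 2 lowest; STIL, PCM1, CCNF and USP33 and the cell type markers given were added by choice. Alternatives were pseudocounts of 0.1 and 5, no filter, a mean of at least 5 FPKM, TPM, median centring, length correction and summing rows that share a symbol. Removing the median of 10 neighbours on each side, and leaving out CEP97, were added after seeing the data.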

Additional observations from a re-analysis of the deposited data

How the results depend on the processing

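No paired analysis was possible because each group has 1 library, and for the same reason no replicate could be left out. Of all genes at least 2-fold apart, 775 were higher and 516 lower. A pseudocount of 0.1 gave 812 lower. A pseudocount of 5 gave 399 higher and 172 lower of the 11253 measured genes, with 0 of 30 CEP members at least 2-fold lower. With a mean of at least 5 FPKM, 12 of 19 members were lower. The share of all genes that were lower is not given for this filter, and was 49% with the filter of 1 FPKM. Under TPM, 6 members were at least 2-fold lower (background 14.4%), their median was -0.64, and 323 genes were higher and 1622 lower. With the length trend removed, 0 members were at least 2-fold lower and their median was -0.11, while 423 genes were higher and 364 lower. Against the neighbours' median the members' median was -0.13, and without CEP97 0 members were at least 2-fold higher. The causes were not tested beyond what each setting does by construction. Filters and summed rows cannot move the ratio of a member with 1 row. Over the settings that can, CEP97 ranged from 3.65 to 6.10, CCP110 from -1.46 to -0.50, CEP63 from -1.47 to -0.33 and CEP250 from -1.60 to -0.89. CCP110, CEP63 and CEP250 were under 2-fold with a pseudocount of 5 and after the length trend was removed, and CEP63 also against its neighbours. Intervals cover counting error only, and the read numbers behind them depend on the transcript assumed.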
